A study of Saccharomyces cerevisiae with 11 samples.

Results

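The genes described here are 55 enzymes and enzyme subunits with which the budding yeast Saccharomyces cerevisiae makes its amino acids. They were chosen by name and pathway, not by a cut on a measured value, though with earlier results of these data known: the ARG and CPA genes (arginine), HIS (histidine), ARO and TRP (chorismate and tryptophan), LYS (lysine), LEU1, LEU4 and LEU9 (leucine), ILV and BAT (isoleucine and valine), HOM and THR (homoserine and threonine), SER and GLY1 (serine and glycine), ASN (asparagine), and GDH1 and GLN1 (glutamate and glutamine). The proline genes and the marker genes LEU2 and HIS3 were left out. Of the 6834 features in the tables, 54 of the 55 listed genes had values and 1 was not analysed here.

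Total RNA was sequenced from 11 cultures of a yeast strain for Abf1 anchor-away (genotype ABF1-aa-V5 clone A9, given as BY4741), in which the chromosomal Abf1 carries an FRB tag and the ribosomal protein Rpl13A carries FKBP12 tags. Rapamycin, at 8 µg/ml in every culture, joins the tags and takes the chromosomal Abf1 out of the nucleus, so that a copy on the LEU2 plasmid pRS315 is what remains there. The plasmid encoded full-length wild-type (WT) Abf1 (2 libraries), nothing (no Abf1, 3 libraries), or Abf1 with a changed second disordered region, IDR2, and no IDR1: the essential motif shuffle (EM shuffle, 2 libraries), LS-15 (2 libraries) and NCS-506 (2 libraries). In the EM shuffle the residues of the essential motif are scrambled, LS-15 is another scrambled stretch and NCS-506 came from random mutagenesis; the study classes the EM shuffle as inviable and the other constructs as viable with slow growth. Cells grew in log phase in YNB medium without leucine and had 75 min of rapamycin, except for 1 of the WT Abf1 libraries (replicate 1), which had 60 min and belongs to an earlier batch than the other 10. Within WT Abf1, replicate, time and batch cannot be told apart. Replicates came from independent transformant clones.

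In yeast, amino acid genes answer to general amino acid control: when an amino acid runs short, the kinase Gcn2 raises translation of the activator Gcn4, which binds the sequence TGACTCA in the promoters of many pathways at the same time. Pathway regulators act on top of this, among them Leu3 on leucine and branched-chain genes, Lys14 on lysine genes and the ArgR complex with Mcm1 on arginine genes. Abf1 is an essential general regulatory factor that binds a split consensus in many promoters and helps to keep them free of nucleosomes, and earlier work placed Abf1 sites upstream of HIS7, TRP3 and ARO3.

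Library totals ran from 920044 to 2195476 counts (median 1422833), and the 54 genes together held 1.39% to 3.00% of them. The lowest count of any of the 54 genes in any library was 5, and all 54 passed the filter on low counts. Levels are given as CPM (counts relative to the library total as scaled by TMM), and changes as log2 fold changes ± SE with adjusted p-values by edgeR (quasi-likelihood F test, Benjamini-Hochberg over 5456 features); a gene is said to have risen or fallen where its adjusted p was under 0.05. ABF1 RNA, which the tagged chromosomal gene also makes, was counted in all 11 libraries (188 to 405 CPM) and therefore does not check the depletion. MET17, which BY4741 lacks, was counted in all libraries too (104 to 249 CPM), against the strain label. Counts of replicate libraries differed by more than sampling noise in every condition (chi-square per degree of freedom 1.27 to 25.9 over 5015 features), most in the EM shuffle (25.9) and WT Abf1 (22.7).

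Levels per kb of gene spanned a wide range with wild-type Abf1. The highest means were those of LEU1 (isopropylmalate isomerase), at 1024 CPM per kb, ILV5 (acetohydroxyacid reductoisomerase), at 950.3, and GLN1 (glutamine synthetase), at 813. The lowest were those of ARG2 (acetylglutamate synthase), at 32.7 CPM per kb, HIS6 (a histidine pathway isomerase), at 33.2, and SER2 (phosphoserine phosphatase), at 35.4. Summed over the 54 genes, the level was 21194 and 20962 CPM with wild-type Abf1 and 15377, 15027 and 14530.0 CPM without Abf1. In the EM shuffle the sum was 27246 and 20987 CPM, in LS-15 18075 and 19804 CPM and in NCS-506 17967 and 19666 CPM. The 3 libraries without Abf1 thus had the lowest sums of the 11, and EM shuffle replicate 1 the highest. In RNA from whole cultures, less RNA per cell and fewer cells making the RNA cannot be told apart.

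**Figure D1:**
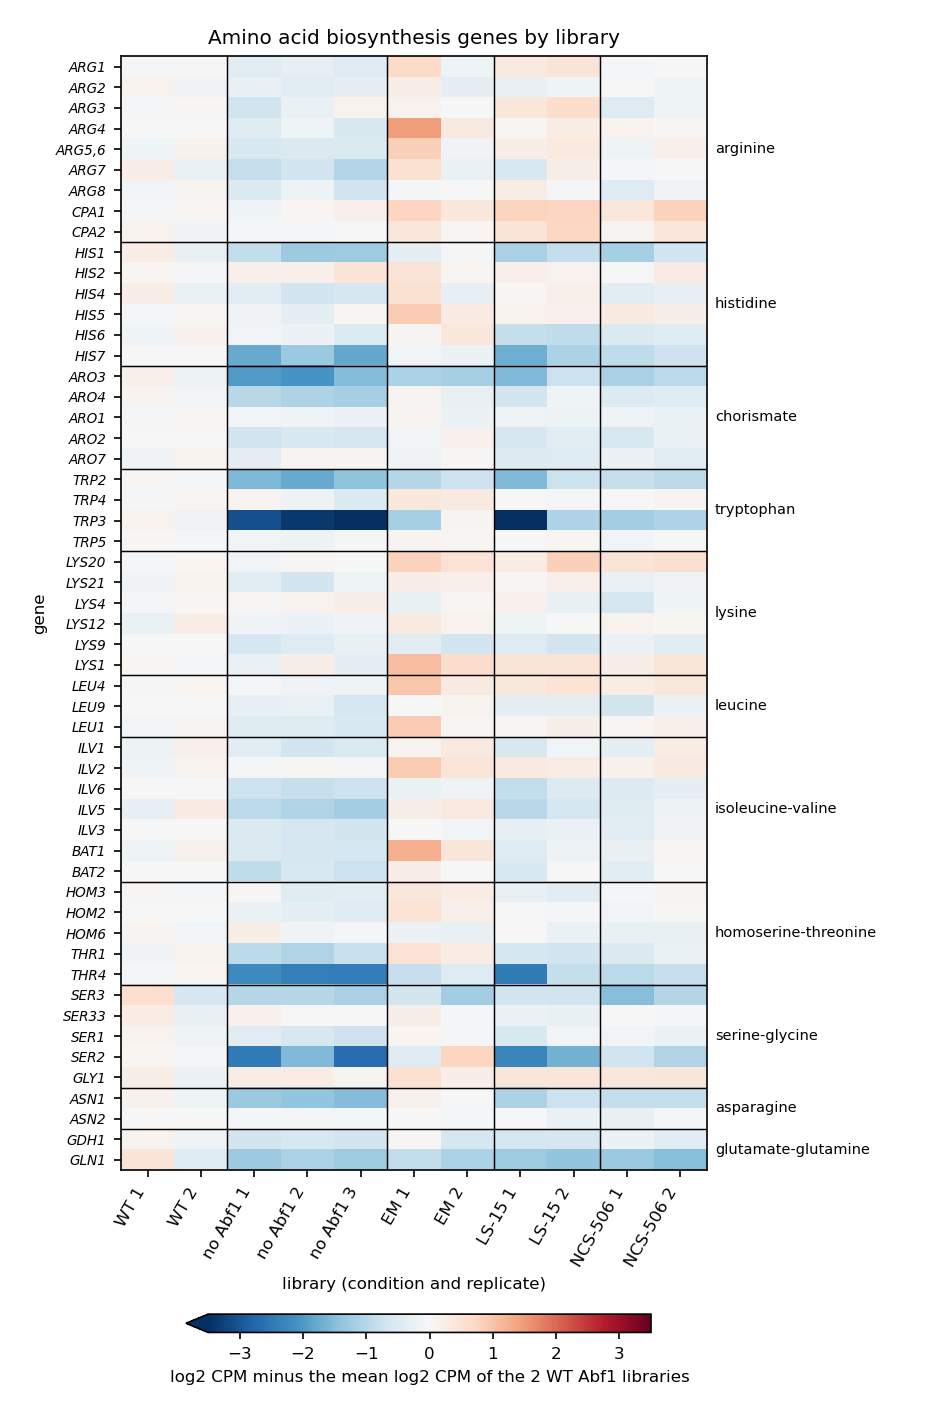
Colour gives the log2 CPM of each of the 54 genes (rows, grouped by pathway) in each of the 11 libraries (columns) minus the mean log2 CPM of the WT Abf1 libraries; values beyond either end of the colour scale take its last colour. The columns without Abf1 are blue for TRP3, THR4, SER2, ARO3, HIS7, TRP2 and ASN1, and EM shuffle replicate 1 is red for ARG4 and BAT1.

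Without Abf1, 20 of the 54 genes fell against wild-type Abf1 and none rose (37.0% lower, against 13.7% lower and 9.73% higher among all 5456 features). Of the features called, 41.6% were higher, a share that was 30.3% with TMM on genes without an Abf1 match and 27.6% in limma on log2(TPM + 1); the median change of the 54 genes was -0.40, against 0.02 over all features, and 48 of the 54 were below 0. On each of these scales no gene of the list rose. No gene of the list was higher at an unadjusted p under 0.05 either, and DESeq2 and limma also called none higher. At that unadjusted level 25 were lower, and of the 5456 features 942 were higher and 1100 lower. The falls were spread over 9 of the 11 pathways, with none in the lysine and leucine genes. The 20 genes were TRP3, THR4, SER2, ARO3, HIS7, TRP2, ASN1, GLN1, SER3, HIS1, ILV5, ARO4, THR1, ARG7, ILV6, BAT2, GDH1, ARO2, ILV3 and SER1, in order of the size of the fall. With each library left out in turn, 13 to 15 genes fell (13 without no Abf1 replicate 3), and 13 genes did so in all 5 of these fits; ARO2, ARG7, SER1 and GDH1 fell in none of them, and SER3, ILV3 and BAT2 in some. In limma's test on log2(TPM + 1) 8 genes fell, beside 163 of the 5456 features. Counts with a library left out, here and below, have no share over all features beside them.

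**Figure D2:**
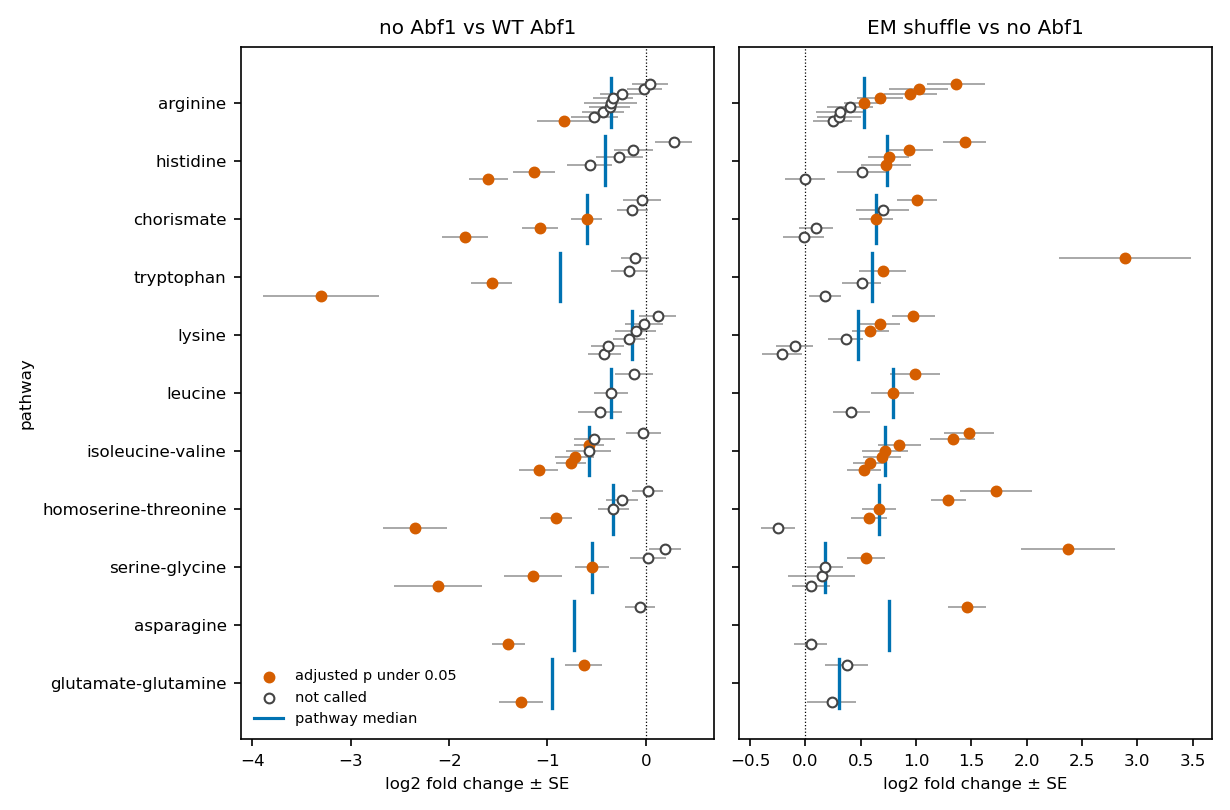
Each point is 1 gene, at its log2 fold change (x axis, bars show the SE) without Abf1 against WT Abf1 (left) and in the EM shuffle against no Abf1 (right), by pathway (y axis); filled points passed the test and blue lines are pathway medians. On the left every filled point lies below 0 (20 genes), on the right every filled point lies above 0 (32 genes).

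The largest fall of all 54 genes was in the tryptophan branch. TRP3 (YKL211C, chrXI:36699-38153, minus strand) encodes 1 protein that is both the glutaminase subunit of anthranilate synthase and indole glycerol phosphate synthase; coordinates of genes are those of the annotated gene in build R64. Its level was 138 and 117 CPM with wild-type Abf1 and 15.0, 12.2 and 11.3 CPM without Abf1 (-3.30 ± 0.59, adjusted p = 0.0029), and the groups did not overlap. Such a lack of overlap, here and below, is a weak mark with so few libraries: ASN2, at -0.06, showed it too. Its share over all features was not counted. TRP2 (YER090W, chrV:337949-339472, plus strand), the other subunit of anthranilate synthase, which opens the branch, was at 190.5 and 178 CPM with wild-type Abf1 and 62.2, 54.3 and 69.9 CPM without (-1.57 ± 0.21, adjusted p = 0.001). Here too the groups were well apart. The remaining genes of the branch did not pass the test: TRP4 (anthranilate phosphoribosyltransferase) changed by -0.17 ± 0.18 and TRP5 (tryptophan synthase, the last step) by -0.11 ± 0.14. The 4 genes had a median change of -0.87.

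In the shikimate pathway, which makes chorismate for all aromatic amino acids, both enzymes of the entry step fell. ARO3 (YDR035W, chrIV:521816-522928, plus strand), the DAHP synthase inhibited by phenylalanine, stood at 191 and 150.1 CPM with wild-type Abf1 and 43.1, 40.3 and 59.6 CPM without Abf1 (-1.84 ± 0.23, adjusted p = 0.00077). Its isozyme ARO4 (YBR249C, chrII:716882-717994, minus strand), inhibited by tyrosine, stood at 454 and 404 CPM and 218, 202 and 191 CPM (-1.07 ± 0.18, adjusted p = 0.0022). Neither pair of groups overlapped, and the fall of ARO3 was the larger value. ARO2 (chorismate synthase, the last step) fell by less (-0.60 ± 0.16, adjusted p = 0.017). ARO1, whose product carries out the steps in between, was at 727 and 809.8 CPM against 718, 707 and 668 CPM (-0.14 ± 0.16), and ARO7, the chorismate mutase of the phenylalanine and tyrosine branch, changed by -0.04 ± 0.19; neither passed the test.

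Among the histidine genes, 2 of 6 fell. HIS7 (YBR248C, chrII:714807-716465, minus strand) makes imidazole glycerol phosphate and is the point where histidine and purine synthesis meet. It was read at 153 and 148 CPM with wild-type Abf1 and at 44.1, 60.9 and 43.2 CPM without Abf1 (-1.60 ± 0.20, adjusted p = 0.00071). HIS1 (YER055C, chrV:264892-265785, minus strand), the ATP phosphoribosyltransferase that starts the pathway, was read at 294 and 208 CPM and 135, 103 and 104 CPM (-1.13 ± 0.22, adjusted p = 0.004). For both genes every library without Abf1 lay below both WT Abf1 libraries. HIS4, a protein with several catalytic domains and a classical Gcn4 target, was at 628 and 448 CPM against 400.1, 335 and 353 CPM and missed the threshold (-0.57 ± 0.23, adjusted p = 0.092). HIS5 (an aminotransferase), HIS6 and HIS2 (histidinol phosphatase) changed by -0.13, -0.27 and 0.28, none past the test.

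In the homoserine and threonine pathway the fall lay in the last steps. THR4 (YCR053W, chrIII:216697-218241, plus strand), threonine synthase, dropped from 395 and 434 CPM with wild-type Abf1 to 88.2, 78.7 and 77.1 CPM without Abf1 (-2.35 ± 0.32, adjusted p = 0.0011), the change with the second largest size of the 54. THR1 (YHR025W, chrVIII:159438-160511, plus strand), the homoserine kinase just before it, was at 199.7 and 239 CPM and 116, 106 and 127 CPM (-0.91 ± 0.16, adjusted p = 0.0026). The enzymes that lead from aspartate to homoserine did not pass the test: HOM3 (aspartate kinase) changed by -0.24 ± 0.17, HOM2 (aspartate semialdehyde dehydrogenase) by -0.33 ± 0.16 and HOM6 (homoserine dehydrogenase) by 0.02 ± 0.16.

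Serine is made from phosphoglycerate by SER3 or SER33 (phosphoglycerate dehydrogenases), SER1 (phosphoserine aminotransferase) and SER2. The last enzyme, SER2 (YGR208W, chrVII:911883-912812, plus strand), was at 34.4 and 31.4 CPM with wild-type Abf1 and 6.02, 11.2 and 5.14 CPM without (-2.11 ± 0.45, adjusted p = 0.0069); it is the gene with the fewest counts of the list, with 33.5 per library on average. SER1 fell by less (-0.55 ± 0.17, adjusted p = 0.039). SER3 was at 235 and 104 CPM in the WT Abf1 libraries, of which the 60 min library was the higher, and at 78.2, 78.7 and 70.9 CPM without Abf1 (-1.15 ± 0.30, adjusted p = 0.017). Without the 60 min WT Abf1 library its value was -0.45 ± 0.26, adjusted p = 0.24, and the call was also lost without no Abf1 replicate 2 or 3 (adjusted p = 0.054 and 0.063). SER33 stood at 104 and 71.9 CPM and 95.3, 85.2 and 86.4 CPM (0.02 ± 0.18, adjusted p = 0.95). GLY1, the threonine aldolase that makes glycine, was at 354 and 269 CPM and 368, 369 and 332 CPM (0.20 ± 0.16, adjusted p = 0.42). SER3 lies just downstream of SRG1, a transcript that runs over the SER3 promoter, and the strand setting of the counting is not given in the sources used here.

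The asparagine synthetases ASN1 and ASN2, which make the same product, differed. ASN1 (YPR145W, chrXVI:822620-824338, plus strand) was at 925 and 753 CPM with wild-type Abf1 and 337, 323 and 294 CPM without Abf1 (-1.40 ± 0.17, adjusted p = 0.00071). ASN2 (YGR124W, chrVII:739944-741662, plus strand) was at 733 and 726 CPM and 707, 697 and 695 CPM (-0.06 ± 0.15, adjusted p = 0.82). ASN1 fell in all 5 fits with a library left out, and ASN2 in none. Their coding sequences share 81.2% of bases and at most 83 identical bases in a row, so that some short reads could be shared between them.

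The RNA of both genes of glutamate and glutamine synthesis fell in the fit of all libraries. GLN1 (YPR035W, chrXVI:642208-643320, plus strand) had 1171 and 637 CPM in the WT Abf1 libraries (60 min and 75 min) and 357, 399.9 and 367 CPM without Abf1 (-1.27 ± 0.22, adjusted p = 0.0024). Against the 75 min WT Abf1 library alone its change was -0.77 ± 0.18, adjusted p = 0.017, and against the 60 min library alone -1.65 ± 0.17, adjusted p = 0.0023. The size of the fall thus moved with the WT Abf1 library used, while the call stayed. GDH1, the NADP-dependent glutamate dehydrogenase, was at 958 and 805 CPM and 558, 599 and 547 CPM (-0.63 ± 0.19, adjusted p = 0.034), and passed the test only with all libraries in the fit.

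Of the 7 isoleucine and valine genes, 4 fell. ILV5 (YLR355C, chrXII:838066-839253, minus strand), the enzyme that reduces acetohydroxy acids, was at 899 and 1359 CPM with wild-type Abf1 and 569.5, 536 and 486 CPM without (-1.09 ± 0.20, adjusted p = 0.0035). ILV6, the regulatory subunit of acetolactate synthase, was at 384 and 394 CPM and 234, 223 and 233 CPM (-0.76 ± 0.15, adjusted p = 0.0048), whereas its catalytic partner ILV2 was at 742 and 871 CPM and 788, 820.5 and 770.0 CPM (-0.02 ± 0.18, adjusted p = 0.94). The subunits of acetolactate synthase therefore had unequal values. ILV3 (dihydroxyacid dehydratase) fell by 0.58 and BAT2, the cytosolic branched-chain aminotransferase, by 0.72 on the log2 scale. BAT1, the mitochondrial aminotransferase, changed by -0.58 ± 0.23 (adjusted p = 0.089) and ILV1 (threonine deaminase) by -0.52 ± 0.21; neither passed the test.

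Leucine, lysine and most arginine genes did not pass the test. LEU4 and LEU9, the isopropylmalate synthases, changed by -0.12 ± 0.20 and -0.36 ± 0.17, and LEU1 by -0.46 ± 0.23 (adjusted p = 0.16). The 6 lysine genes ran from -0.42 to 0.12, with the median nearest to 0 of any pathway (-0.14). Their homocitrate synthases LYS20 and LYS21 changed by -0.02 and -0.39; these genes are 91.9% identical with up to 278 identical bases in a row, so how their reads were divided is uncertain. LYS9, a saccharopine dehydrogenase, had the largest change of that pathway (-0.42 ± 0.17, adjusted p = 0.086). In the arginine pathway ARG7, the ornithine acetyltransferase, fell from 124 and 91.5 CPM to 61.2, 67.4 and 52.4 CPM (-0.83 ± 0.28, adjusted p = 0.047), a call that was lost with any library left out. The rest of the arginine genes ran from -0.52 to 0.04.

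By pathway, the median change without Abf1 was lowest for glutamate and glutamine (-0.95, 2 genes), tryptophan (-0.87, 4 genes) and asparagine (-0.73, 2 genes). It was -0.60 for chorismate, -0.58 for isoleucine and valine, -0.55 for serine and glycine, -0.42 for histidine, -0.36 for arginine, -0.36 for leucine and -0.33 for homoserine and threonine. No pathway had all its genes past the test except glutamate and glutamine, where both fell. The order turned with the WT Abf1 library: without the 60 min library the median of glutamate and glutamine was -0.64, behind tryptophan (-0.88), isoleucine and valine (-0.72) and asparagine (-0.65). Pathways of so few genes share regulators and libraries, and the medians were not tested against each other.

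**Figure D3:**
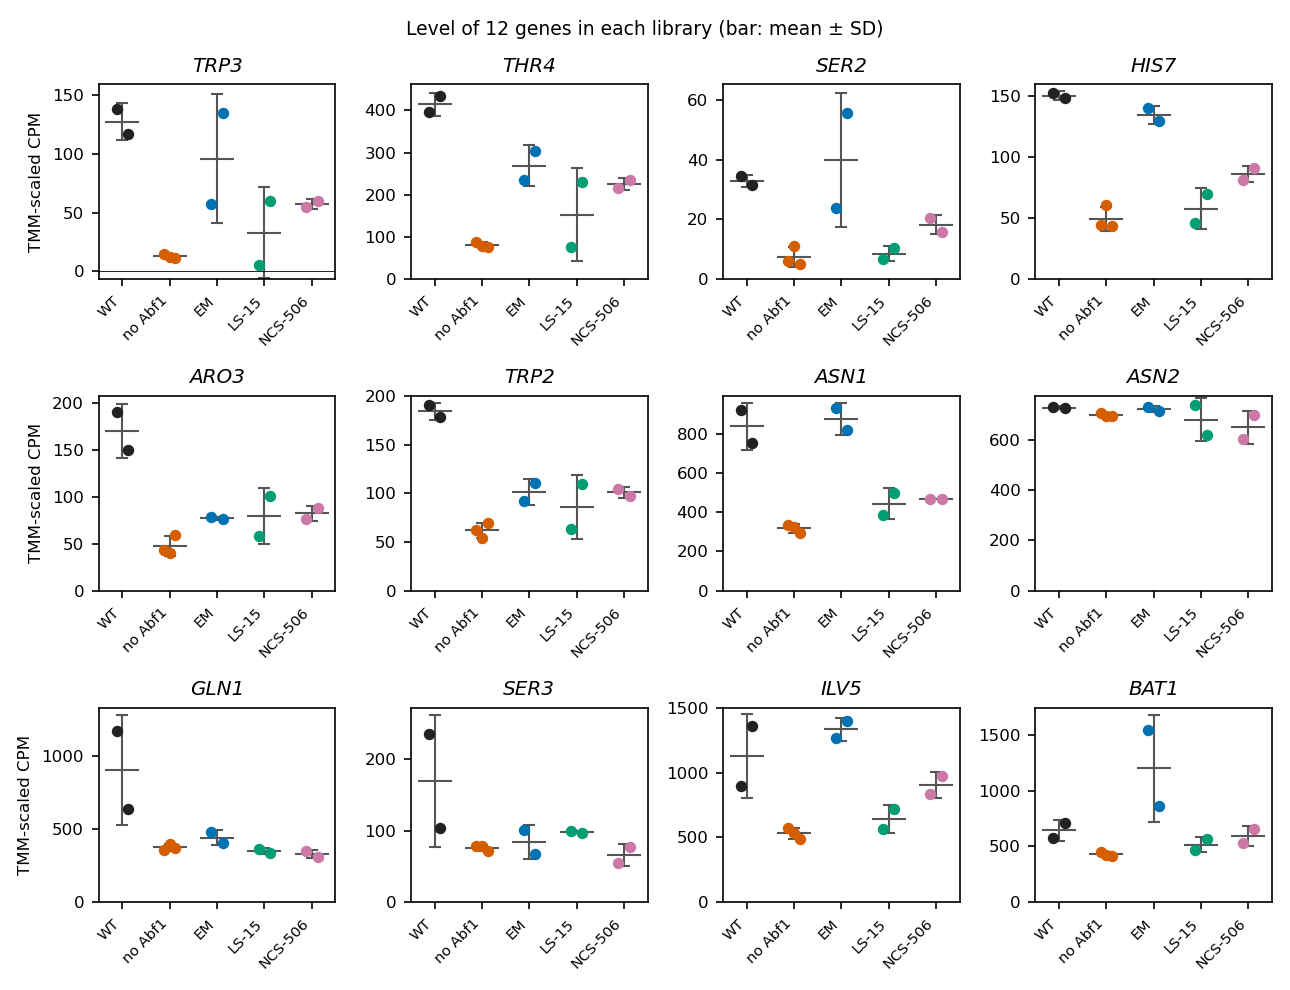
TMM-scaled CPM (y axis) of 12 genes in the libraries of the 5 conditions (x axis); points are libraries, bars the mean ± SD of 2 libraries (3 without Abf1). TRP3, THR4, HIS7, ARO3, TRP2 and ASN1 are lower in all 3 libraries without Abf1 than in both WT Abf1 libraries, ASN2 is nearly level, and the WT Abf1 points of GLN1 and SER3 lie far apart.

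In the EM shuffle, the amino acid genes stood higher than without Abf1. Of the 54 genes, 32 rose and none fell (59.3% higher, against 12.9% higher and 11.1% lower among all features), with a median of 0.61 against 0.03 over all features. No gene was lower at an unadjusted p under 0.05, and 37 were higher at that level, beside 967 and 1093 of the 5456 features. DESeq2 called none lower. Limma on log2(TPM + 1) called none lower either, but 98.3% of all called features were higher on that scale. With the TPM rescaled to a common sum limma called 19 higher and none lower, where 77.9% of all called features were higher. The rises came from 10 of the 11 pathways. All 7 isoleucine and valine genes rose, as did 5 of 9 arginine genes, 4 of 6 histidine genes and 4 of 5 homoserine and threonine genes. The comparison shares the 3 libraries without Abf1 with the one above, so low values in them enter both. Leaving out a library gave 14 to 24 genes: 18, 16 and 14 without no Abf1 replicate 1, 2 and 3, and 21 without EM shuffle replicate 1. In all 5 of these fits 12 genes rose, namely THR4, TRP3, SER2, BAT1, ASN1, HIS7, ARG4, ILV5, THR1, ARO4, LYS1 and BAT2.

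TRP3, THR4 and SER2 had the largest rises. TRP3 was at 57.1 and 135 CPM in the EM shuffle and 15.0, 12.2 and 11.3 CPM without Abf1 (2.89 ± 0.59, adjusted p = 0.008); EM shuffle replicate 2 was near the WT Abf1 level and replicate 1 well under it. SER2 was at 23.9 and 55.7 CPM against 6.02, 11.2 and 5.14 CPM (2.37 ± 0.42, adjusted p = 0.0049), with the EM shuffle replicates again far apart. THR4 was at 235 and 303 CPM against 88.2, 78.7 and 77.1 CPM (1.72 ± 0.32, adjusted p = 0.0057), and both EM shuffle libraries stayed below both WT Abf1 libraries. In all 3 genes every EM shuffle library was above every library without Abf1.

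Some genes that had not passed the test without Abf1 were above both wild-type Abf1 and no Abf1 levels in the EM shuffle. BAT1 was at 1540.4 and 860.0 CPM in the EM shuffle, 574 and 712 CPM with wild-type Abf1 and 447, 426 and 417 CPM without Abf1 (EM shuffle against no Abf1 1.48 ± 0.23, adjusted p = 0.0029). ARG4, argininosuccinate lyase, was at 706 and 319 CPM, 255 and 255 CPM and 191, 231 and 175 CPM in the same order (1.36 ± 0.26, adjusted p = 0.0062). LYS1, a saccharopine dehydrogenase of the last lysine step, was at 135 and 97.8 CPM, 66.3 and 61.4 CPM and 54.1, 73.1 and 50.4 CPM (0.98 ± 0.19, adjusted p = 0.0071). Against wild-type Abf1 these genes did not pass the test. The values were 0.90 ± 0.25 for BAT1 (adjusted p = 0.091), 1.01 ± 0.29 for ARG4 (adjusted p = 0.097) and 0.87 ± 0.21 for LYS1 (adjusted p = 0.056). Their libraries did not overlap, but neither did those of TRP5 (0.07) and BAT2 (0.13) in that comparison.

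The EM shuffle replicates differed in this list. Replicate 1 was the higher in 40 of the 54 genes, with a median log2 difference of 0.22, against 0.04 over all features. The gap was wide for ARG4 (706 and 319 CPM), LEU1 (4422 and 2491 CPM) and BAT1 (1540.4 and 860.0 CPM). In the 27 genes with a Gcn4 core in the promoter the median difference was 0.30, and in the 27 without the core it was 0.20, with replicate 1 the higher in 20 genes of each set. In the 12 with an Abf1 consensus match it was -0.21, that is, in the other direction. TRP3 and SER2 were among the genes higher in replicate 2. Values of the EM shuffle for these genes therefore carry a wide spread.

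Against wild-type Abf1 few genes of the EM shuffle passed the test. Only 1 gene of 54 fell and none rose (1.56% of all features lower, 0.678% higher), and the median was 0.10. At an unadjusted p under 0.05, 9 genes were higher and 5 lower, beside 442 and 557 of the 5456 features. DESeq2 called 3 higher and 3 lower, and its counts, here and below, have no share over all features beside them. The gene that fell was ARO3, at 78.4 and 76.2 CPM in the EM shuffle against 191 and 150.1 CPM (-1.14 ± 0.24, adjusted p = 0.038). GLN1 (-1.03 ± 0.24, adjusted p = 0.051) and TRP2 (-0.87 ± 0.22, adjusted p = 0.063) had values of like size that missed the threshold. The count was 0 without the 60 min WT Abf1 library, 3 without the 75 min library, 2 without EM shuffle replicate 1 and 13 without EM shuffle replicate 2. The number of calls depended on the scale. On log2(TPM + 1) limma called 46 genes higher and none lower. There the median of all features was itself 0.60 and that of the 54 genes 0.96. The TPM columns summed to 132355 and 140936 in the EM shuffle and to 85457 and 87899 with wild-type Abf1. With the TPM rescaled to a common sum limma called none, with a median of 0.40 for the 54 genes and 0.20 over all features.

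In LS-15, 11 of the 54 genes fell against wild-type Abf1 and 1 rose (6.76% of all features lower, 4.47% higher). The median of the 54 genes was -0.21 on the TMM scale and 0.02 on log2(TPM + 1), where limma called none. The genes that fell were SER2, THR4, GLN1, HIS7, TRP2, ARO3, HIS1, ASN1, ILV5, THR1 and ILV6. SER2 was at 6.75 and 10.4 CPM against 34.4 and 31.4 CPM (-1.87 ± 0.47, adjusted p = 0.032), and THR4 at 75.4 and 230.4 CPM against 395 and 434 CPM (-1.40 ± 0.35, adjusted p = 0.03). For THR4 the LS-15 replicates stood far apart, replicate 1 at the level without Abf1. GLN1, at 364 and 334 CPM, had the third largest fall (-1.37 ± 0.25, adjusted p = 0.015). CPA1, the small subunit of carbamoyl phosphate synthetase, was the gene that rose, with 243 and 237 CPM against 135 and 147 CPM (0.77 ± 0.20, adjusted p = 0.033). These calls depended on single libraries: 0 genes passed without LS-15 replicate 1, 3 without the 60 min and 5 without the 75 min WT Abf1 library.

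TRP3 showed the spread of LS-15 best. Its level was 5.62 and 60.3 CPM in the LS-15 replicates, the first under all libraries without Abf1 and the second near the NCS-506 libraries (54.6 and 60.1 CPM). Against wild-type Abf1 the value was -1.79 ± 0.57, adjusted p = 0.062. HIS7, at 46.1 and 69.5 CPM in LS-15, 81.2 and 90.7 CPM in NCS-506 and 139.9 and 129 CPM in the EM shuffle, had closer replicates and the order no Abf1, LS-15, NCS-506, EM shuffle, WT Abf1 by mean level (49.4 ± 9.96, 57.8 ± 16.5, 86.0 ± 6.72, 135 ± 7.50 and 150.4 ± 3.35 CPM, mean ± SD). Within that order no Abf1 and LS-15 overlapped. All other neighbours were apart in their libraries, but the EM shuffle was not called different from wild-type Abf1 (-0.16 ± 0.20, adjusted p = 0.72).

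Against no Abf1, LS-15 had no gene past the test in edgeR (0% of all features higher, 0% lower), in DESeq2 or in limma. At an unadjusted p under 0.05, 20 genes were higher and 1 was lower, beside 359 of the 5456 features in either direction, and the median of the 54 was 0.26. Without LS-15 replicate 1, 4 genes passed. The interval for a single gene was wide: the TRP3 difference was 1.52 ± 0.67 and that of ARG1, argininosuccinate synthetase, 0.76 ± 0.21. A missed threshold here does not show that the levels were alike.

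NCS-506 had 1 gene lower and none higher than wild-type Abf1 (0.532% of all features lower, 0.055% higher). At an unadjusted p under 0.05, 13 genes were lower and 3 higher, beside 623 and 420 of the 5456 features. DESeq2 called 7 lower and none higher. The gene that fell was GLN1, with 349 and 308 CPM against 1171 and 637 CPM (-1.46 ± 0.25, adjusted p = 0.035). It passed only with both NCS-506 libraries and with the 60 min WT Abf1 library in the fit; without the 75 min WT Abf1 library 5 genes passed, and none did without the 60 min library or either NCS-506 library. The median was -0.19 on the TMM scale and 0.69 on log2(TPM + 1), where limma called 23 genes higher and the median of all features was 0.56. Against no Abf1, 1 gene rose and none fell (2.4% of all features higher, 0.788% lower): THR4, at 215 and 236 CPM against 88.2, 78.7 and 77.1 CPM (1.47 ± 0.32, adjusted p = 0.036). At an unadjusted p under 0.05, 20 genes were higher and 1 was lower there, beside 571 and 466 of the 5456 features. DESeq2 called none lower. Limma on log2(TPM + 1) called none lower either, but 99.4% of all called features were higher on that scale. The THR4 call was lost with any of the 5 libraries left out. TRP3, at 54.6 and 60.1 CPM, missed the threshold (2.15 ± 0.62, adjusted p = 0.083). With these conditions fitted alone 26 genes were called higher and 1 lower, without a share over all features to set beside them.

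Side by side, the 20 genes that fell without Abf1 had median values against wild-type Abf1 of -1.11 without Abf1, -0.11 in the EM shuffle, -0.80 in LS-15 and -0.64 in NCS-506. All 4 comparisons share the WT Abf1 libraries, and the 20 genes were picked by the first of them. The EM shuffle and NCS-506 medians moved above 0 on log2(TPM + 1), to 0.80 and 0.35, and that of LS-15 stayed below, at -0.48. THR4, ARO3, HIS7, TRP2, GLN1, SER3 and ILV6 lay under both WT Abf1 libraries in every variant library, and the other genes of the 20 did not. ARO3 was at 78.4 and 76.2 CPM in the EM shuffle, 58.5 and 101 CPM in LS-15 and 77.1 and 87.8 CPM in NCS-506. GLN1 ran from 308 to 479.5 CPM in all libraries other than those of WT Abf1, which all lay under both of those.

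**Figure D4:**
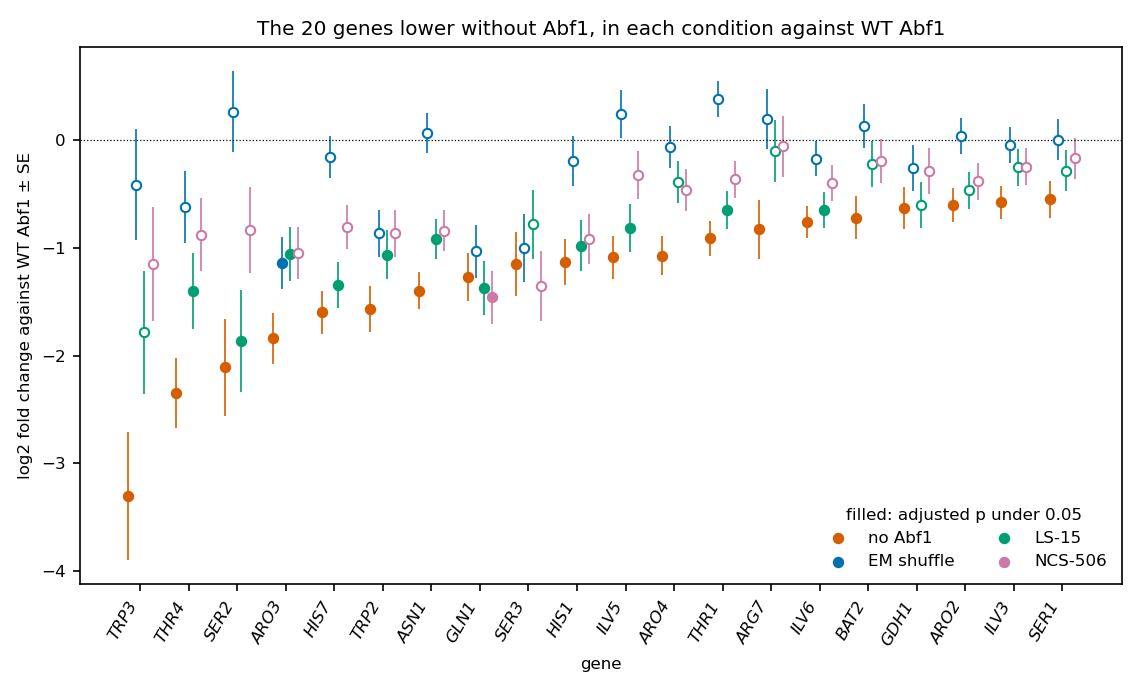
Log2 fold change against WT Abf1 (y axis, TMM scale, bars show the SE) of the 20 genes lower without Abf1 (x axis, ordered by that value), in each of the other 4 conditions; filled points passed the test. Points of the EM shuffle lie nearest to 0 for most genes, with ARO3 (-1.14) and GLN1 (-1.03) as the lowest.

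The inviable EM shuffle was also set against the mean of the viable LS-15 and NCS-506, a comparison that shares no control libraries. Of the 54 genes, 7 were higher and none was lower (0.916% of all features higher, 1.17% lower), and the median was 0.29. At an unadjusted p under 0.05, 18 were higher and none lower, beside 610 and 619 of the 5456 features. DESeq2 called 8 higher. SER2 was highest: 23.9 and 55.7 CPM in the EM shuffle, 6.75 and 10.4 CPM in LS-15 and 20.4 and 15.9 CPM in NCS-506 (1.62 ± 0.34, adjusted p = 0.045). BAT1 followed, with 1540.4 and 860.0, 466 and 564 and 529.5 and 656 CPM (1.12 ± 0.21, adjusted p = 0.029). ASN1 had 932 and 820.1, 387 and 499 and 467 and 469 CPM (0.94 ± 0.16, adjusted p = 0.018). In these genes, as in HIS7, HIS6, THR1 and ILV5, the EM shuffle libraries lay above all 4 viable variant libraries. The count fell to 4 without EM shuffle replicate 2, to 2 without NCS-506 replicate 2 and to 0 without LS-15 replicate 1 or NCS-506 replicate 1, and no gene passed with only these conditions in the fit. On log2(TPM + 1) limma called 2 of the genes higher.

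Over the 5 conditions together, 22 of the 54 genes (40.7%) differed, against 19.5% of all features. Without no Abf1 replicate 1, 2 or 3 the count was 12, 12 and 11.

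The 400 bp upstream of each gene start were searched on both strands for the Abf1 consensus. It was found upstream of 12 of the 54 genes (22.2%), against 16.1% of 5869 protein-coding genes. The sequences are shown because the libraries differ in Abf1. Each is read 5′ to 3′ on the strand of the gene, in genome build R64 (sacCer3), with the match in capitals between 12 flanking bases, its coordinates and the distance from its near edge to the gene start. The first 6 belong to genes that fell without Abf1, in order of the fall.
TRP3, chrXI:38323-38335, 169 bp: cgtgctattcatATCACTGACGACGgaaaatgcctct
THR4, chrIII:216492-216504, 192 bp: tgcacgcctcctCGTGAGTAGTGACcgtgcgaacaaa
ARO3, chrIV:521561-521573, 242 bp: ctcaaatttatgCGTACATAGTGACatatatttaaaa
TRP2, chrV:337770-337782, 166 bp: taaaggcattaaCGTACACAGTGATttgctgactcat
HIS1, chrV:265990-266002, 204 bp: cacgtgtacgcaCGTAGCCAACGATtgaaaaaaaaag
ARG7, chrXIII:396579-396591, 199 bp: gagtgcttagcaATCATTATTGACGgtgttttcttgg
The following 6 belong to genes that did not pass that test.
ARG5,6, chrV:295091-295103, 306 bp: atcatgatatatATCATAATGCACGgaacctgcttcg
LYS21, chrIV:227192-227204, 188 bp: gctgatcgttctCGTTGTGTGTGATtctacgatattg
ARG1, chrXV:218824-218836, 374 bp: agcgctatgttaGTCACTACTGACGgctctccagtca
LEU9, chrXV:522761-522773, 253 bp: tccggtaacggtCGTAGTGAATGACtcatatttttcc
HIS6, chrIX:314972-314984, 151 bp: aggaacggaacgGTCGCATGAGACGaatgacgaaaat
LYS4, chrIV:930761-930773, 355 bp: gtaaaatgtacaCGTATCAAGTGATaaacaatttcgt

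The genes that fell had their match between 166 and 242 bp from the gene start, and those that did not had it between 151 and 374 bp. LYS21 (188 bp) and HIS6 (151 bp) lie within or nearer than the first range, and changed by -0.39 and -0.27. Of the 12 genes with a match 6 fell without Abf1 (45.3% of all 905 tested genes with a match did so), and of the 42 without one 14 fell (7.44% of 4423). HIS7, whose promoter is known to hold an Abf1 site, had no match to these letters in the window, nor had SER2, ASN1, GLN1 or ILV5. In 250 bp, 7 of the 54 genes had a match (13%, against 11.8% of all protein-coding genes).

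The Gcn4 core TGACTCA was found within 400 bp of 27 of the 54 genes (50.0%), against 3.42% of all protein-coding genes. It was present in 7 of 9 arginine genes, all 3 leucine genes, both asparagine synthetases, 4 of 6 histidine genes and 4 of 7 isoleucine and valine genes, and in none of the serine, glycine, glutamate and glutamine genes. Counted among them are the cores of ILV6 and HOM2, which reach into the upstream genes STP22 and YDR157W. Of the genes with the largest rises in the EM shuffle against no Abf1, SER2 and THR4 had no core, and TRP3 had it at 116 bp. The matches of BAT1, ASN1, HIS7 and ARG4, which rose by less, are shown, with the core in capitals (TGAGTCA is the same site on the opposite strand).
BAT1, chrVIII:517361-517367, 164 bp: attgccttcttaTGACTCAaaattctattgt
ASN1, chrXVI:822393-822399, 220 bp: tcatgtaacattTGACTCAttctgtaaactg
HIS7, chrII:716690-716696, 224 bp: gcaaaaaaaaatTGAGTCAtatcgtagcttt
ARG4, chrVIII:141575-141581, 172 bp: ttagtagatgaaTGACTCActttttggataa
ASN2, which was at 604 to 741 CPM in all 11 libraries, holds the same core at a like distance.
ASN2, chrVII:739747-739753, 190 bp: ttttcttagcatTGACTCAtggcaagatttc
Of the 27 genes with the core, 21 rose in the EM shuffle against no Abf1, beside 27.5% of all 189 tested genes with it. Of the 27 without it, 11 rose, beside 12.7% of 5139. Without Abf1, 10 genes of each set fell against wild-type Abf1, so that the split by Gcn4 core was even there.

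In 7 genes both motifs were present: TRP3, TRP2, HIS1, ARG7, ARG5,6, ARG1 and LEU9. They were 4 bases apart in TRP2, and in LEU9 they shared 4 bases. In the remaining ones 20 to 83 bases lay between them. The Leu3 motif, shown in capitals, was found upstream of 3 genes (5.56%, against 0.187% of all genes), each of them a branched-chain gene that rose in the EM shuffle against no Abf1.
BAT1, chrVIII:517385-517394, 137 bp: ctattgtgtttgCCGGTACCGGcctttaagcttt
LEU1, chrVII:478860-478869, 207 bp: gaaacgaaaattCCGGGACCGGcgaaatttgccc
ILV5, chrXII:839621-839630, 367 bp: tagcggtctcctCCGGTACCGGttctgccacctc
In the EM shuffle BAT1, LEU1 and ILV5 changed by 1.48, 0.99 and 1.33 against no Abf1. The rise was not particular to them: ILV1, ILV2, ILV3, ILV6, BAT2 and LEU4, without a Leu3 match, rose there too. The Lys14 motif TCCNNNGGA was found upstream of 7 genes (4.7% of all genes), 4 of them lysine genes. A match to such letters is a description of the sequence and not a measured site.

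**Figure D5:**
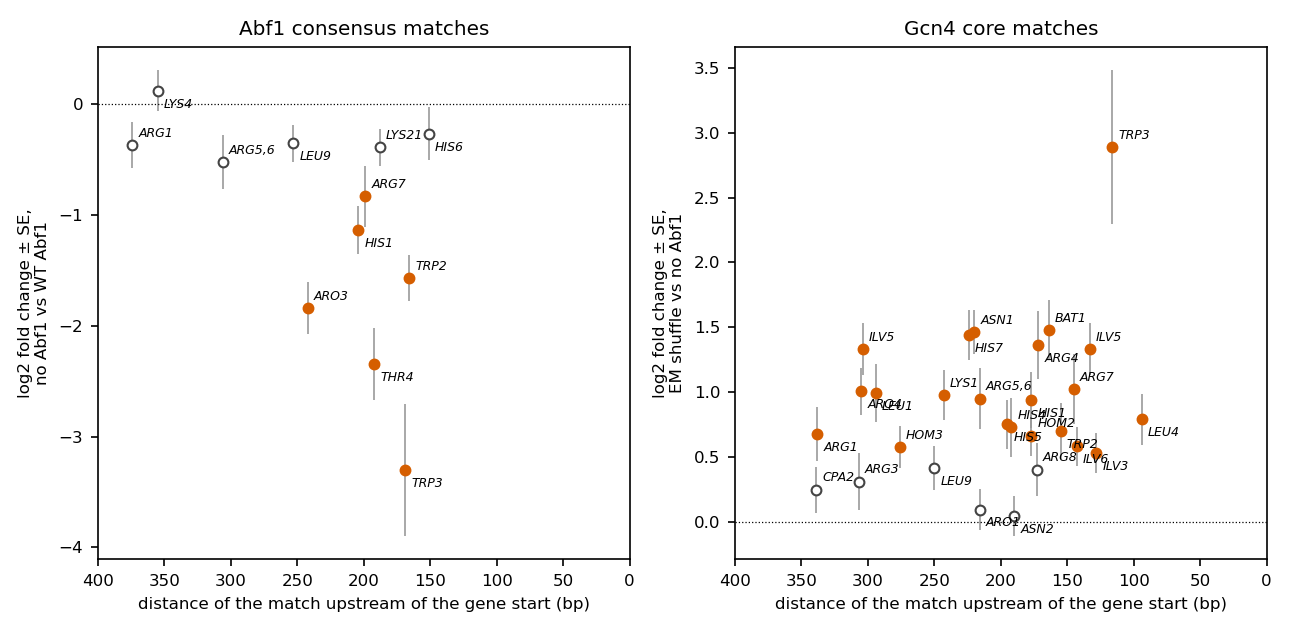
Distance of each motif match upstream of the gene start (x axis, bp) and log2 fold change of the gene (y axis, bars show the SE): Abf1 consensus with no Abf1 against WT Abf1 (left) and Gcn4 core with the EM shuffle against no Abf1 (right); filled points passed the test. The 6 filled points on the left lie between 166 and 242 bp, and ILV5 appears at 2 positions on the right.

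Regulators of these pathways were read from a list of 10. Without Abf1 2 of them fell and none rose, beside 13.7% lower and 9.73% higher among all features. Against wild-type Abf1 2 rose in the EM shuffle (0.678% of all features): ARG80, a subunit of the ArgR complex (1.54 ± 0.31, adjusted p = 0.033), and BAS1, an activator of histidine and purine genes (1.34 ± 0.32, adjusted p = 0.049). GCN4 was at 623 and 563 CPM with wild-type Abf1 and 536, 472 and 441 CPM without (-0.29 ± 0.15, adjusted p = 0.18). In the EM shuffle it was at 669 and 669 CPM, above all libraries without Abf1 (0.47 ± 0.15, adjusted p = 0.042). Gcn4 is set mainly by translation, which RNA levels do not show. LEU3 changed by -0.18 ± 0.20 without Abf1. The regulators that fell were PHO2, a homeodomain partner of Bas1 (-0.79 ± 0.21, adjusted p = 0.02), and GCN2 (-0.51 ± 0.17, adjusted p = 0.049). BAS1 also rose in the EM shuffle against no Abf1, at 92.5 and 177 CPM against 46.1, 49.6 and 43.2 CPM (1.53 ± 0.29, adjusted p = 0.0058). ARG80, BAS1, PHO2 and GCN2 were named after their values were seen.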

How the data were processed

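Total RNA was made into directional libraries and, per the labels, the submitters' processing notes name STAR, RSEM and the build sacCer3 (R64); versions and the strand setting are not given in the sources used here. The deposited tables give, per feature and library, whole-number counts and TPM values that the authors made; the deposited TPM columns sum to 81753 to 140936 per library, so they are not comparable between libraries without rescaling. Counts of 11 libraries were tested with edgeR 4.0.16 (TMM, filterByExpr, quasi-likelihood test, 1 coefficient per condition, 5456 features, adjusted p under 0.05) in R 4.3.3; CPM used the TMM-scaled totals and SE is the log2 fold change divided by the root of F. DESeq2 1.42.0 and limma 3.58.1 on log2(TPM + 1) and log2(TPM + 0.1) were alternatives, as were other count minimums (10 in every library, 1 in any), fits of the compared conditions alone, removal of small RNA genes, TMM on genes without an Abf1 consensus match, each library left out, and a replicate block. The methods of the study name no differential test.

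Promoters were read from the RefSeq genome of the same build (400 bp, alternatively 250 bp). All 54 genes, and 5994 of the 6834 features, matched RefSeq. The members and lists were chosen with earlier results of these data known. Named are genes called without Abf1 with a mean of at least 50 counts, the largest change of each pathway, the largest changes in the variant comparisons, isozyme pairs, HIS7, TRP3, ARO3, GCN4 and LEU3, and others where all calls of a comparison are listed. Coordinates are those of the reference annotation. With 2 or 3 libraries per condition, p-values rest on the spread between libraries of a condition, pooled over the conditions. For wild-type Abf1 that spread holds rapamycin time and batch as well as clone.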

Additional observations from a re-analysis of the deposited data

How the results depend on the processing

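The falls without Abf1 kept their direction in every alternative: 18 to 21 genes fell with other count minimums, without small RNA genes, with other TMM genes or in DESeq2, 27 with the compared conditions alone, 8 and 9 in limma on log2(TPM + 1) and log2(TPM + 0.1), and 9 on log2(rescaled TPM + 1), a scale added after seeing the data. ARO3, ASN1, GLN1, HIS1, HIS7, THR4, TRP2 and TRP3 (8 genes) fell in every alternative in which they were tested, left-out libraries included (14 each, 13 for TRP3, which the minimum of 10 counts drops). In limma on log2(TPM + 1), log2(TPM + 0.1) and log2(rescaled TPM + 1) the counts were 46, 44 and 0 for the EM shuffle against wild-type Abf1, 0, 0 and 0 for LS-15, 23, 20 and 0 for NCS-506, 54, 54 and 19 for the EM shuffle against no Abf1, 52, 52 and 2 for NCS-506 against no Abf1, 2, 0 and 0 for the EM shuffle against the viable variants, and 53, 53 and 9 over the 5 conditions. With the compared conditions alone they were 0, 0 and 0 for the EM shuffle, LS-15 and NCS-506 against wild-type Abf1. Against no Abf1 they were 2 and 27 for LS-15 and NCS-506, and for the EM shuffle against the viable variants 0. Shares over all features are not given for fits of the compared conditions alone. Nor are they given for DESeq2, other count minimums, removal of small RNA genes or fits with a library left out. For the EM shuffle against wild-type Abf1 the count was 2 with 10 counts in every library, 5 with 1 in any, 2 without small RNA genes, 2 with other TMM genes and 6 in DESeq2; for NCS-506 it was 5 with 1 count in any library and 7 in DESeq2, and against no Abf1 4, 2 and, with other TMM genes, 2. The median of all features on log2(TPM + 1) was 0.60 and 0.56 for the EM shuffle and NCS-506 against wild-type Abf1 and 0.66 and 0.65 against no Abf1. Of all called features the share higher on the TMM scale and on log2(TPM + 1) was 30.3% and 99.4%, 9.38% and 99.6%, 53.8% and 98.3%, and 75.3% and 99.4% in these comparisons. The causes of these shifts were not tested. With each library left out the counts ran from 13 to 15 without Abf1, 0 to 13, 0 to 9 and 0 to 5 for the EM shuffle, LS-15 and NCS-506 against wild-type Abf1, 14 to 24, 0 to 4 and 0 to 0 against no Abf1, 0 to 10 for the EM shuffle against the viable variants and 11 to 33 over the 5 conditions.

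Pathway medians without Abf1 stayed below 0. They moved on log2(rescaled TPM + 1) to -0.28 (histidine), -0.57 (tryptophan), -0.070 (lysine) and -0.62 (asparagine), with other TMM genes to -0.70 (chorismate), -0.23 (lysine), -0.42 (homoserine and threonine) and -0.82 (asparagine), with 10 counts in every library, which drops TRP3 and SER2, to -0.18 (tryptophan) and -0.28 (serine and glycine), on log2(TPM + 0.1) to -0.72 (chorismate) and on log2(TPM + 1) to -0.59 (tryptophan). With libraries left out they ran from -0.41 to -0.32 (arginine), -0.80 to -0.65 (asparagine), -0.63 to -0.56 (chorismate), -1.20 to -0.64 (glutamate and glutamine), -0.50 to -0.35 (histidine), -0.41 to -0.27 (homoserine and threonine), -0.72 to -0.56 (isoleucine and valine), -0.42 to -0.26 (leucine), -0.24 to -0.050 (lysine), -0.67 to -0.43 (serine and glycine) and -0.95 to -0.82 (tryptophan). LYS20 and SER33, both near 0, changed sign: LYS20 to 0.0114 on log2(rescaled TPM + 1), and SER33 to -0.073 with other TMM genes and -0.0101 and -0.0125 in limma on log2(TPM + 1) and log2(TPM + 0.1). With libraries left out LYS20 ran from -0.094 to 0.060 and SER33 from -0.23 to 0.30, above 0 for LYS20 and below 0 for SER33 without the 75 min WT Abf1 library or no Abf1 replicate 1. The Abf1 consensus count was 7 in 250 bp (13%, against 11.8% of all protein-coding genes).

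The labels number the replicates of all conditions but wild-type Abf1, so no paired analysis was possible because of missing numbers there. With a replicate block on the numbered libraries, 18 genes differed between the EM shuffle and no Abf1 (32 without the block), 0 and 0 for LS-15 and NCS-506 against no Abf1 and 5 for the EM shuffle against the viable variants (7 without the block). Calls over all features with the block are not given, so a loss of calls particular to these genes is not shown. Independent clones served as replicates in the study, and the labels do not say what a number stands for. Deviations of same-numbered libraries correlated at -0.30 to -0.12 between no Abf1 and the variants and at 0.32 to 0.51 among the variants. With 2 libraries per variant, the 2 deviations of a gene mirror each other. Among the variants, unlike numbers therefore gave the same values with the opposite sign, and each library had to side with 1 of the numbers. The few values cannot decide whether libraries were paired, and the numbers were not taken to pair them. SER2 (5 counts in its lowest library) and TRP3 (also 5) limit the precision of the largest changes.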

Other observations

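Genes that break amino acids down, and other glutamate enzymes, moved in mixed directions. Of 8 listed genes 2 were higher and 1 was lower without Abf1 than with wild-type Abf1 (9.73% of all features higher, 13.7% lower). In the EM shuffle 3 were higher and 2 lower than without Abf1 (12.9% of all features higher, 11.1% lower). GDH2, the NAD-dependent glutamate dehydrogenase that degrades glutamate, was at 147 and 117 CPM with wild-type Abf1, 306, 329.7 and 349 CPM without Abf1 and 169.6 and 106 CPM in the EM shuffle (1.31 ± 0.25, adjusted p = 0.004 without Abf1, -1.25 ± 0.25, adjusted p = 0.0068 for the EM shuffle against no Abf1). It was at 357 and 225 CPM in LS-15 and at 167 and 129.6 CPM in NCS-506. CAR2, the ornithine aminotransferase of arginine breakdown, was higher in each condition than with wild-type Abf1, with 47.0 and 45.4 CPM there and 79.2, 74.0 and 77.1 CPM without Abf1 (0.73 ± 0.19, adjusted p = 0.018).

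ARO9 and ARO10, which break down aromatic amino acids and are induced by them, rose in the EM shuffle against no Abf1; against wild-type Abf1, ARO9 fell without Abf1 (-1.71 ± 0.52, adjusted p = 0.034) and ARO10 missed the threshold (-1.29 ± 0.47, adjusted p = 0.065). ARO9 was at 22.7 and 57.9 CPM with wild-type Abf1, 9.02, 14.0 and 14.4 CPM without Abf1 and 73.5 and 76.2 CPM in the EM shuffle (2.57 ± 0.48, adjusted p = 0.0054 for the EM shuffle against no Abf1). ARO10 was at 13.4 and 46.8, 7.02, 11.2 and 19.5 and 64.2 and 67.8 CPM (2.39 ± 0.42, adjusted p = 0.0047). For both genes the level was higher in the 75 min WT Abf1 library than in the 60 min one. CHA1, the serine and threonine deaminase, was at 30.2 and 22.3 CPM with wild-type Abf1 and 73.5 and 107 CPM in the EM shuffle (1.79 ± 0.26, adjusted p = 0.008). In the viable NCS-506, ARO10 also rose against no Abf1, at 41.2 and 47.7 CPM (1.82 ± 0.43, adjusted p = 0.045). ARO9, at 36.2 and 47.7 CPM there, missed the threshold (1.73 ± 0.50, adjusted p = 0.086). CHA1, at 72.1 and 77.2 CPM in NCS-506, rose against wild-type Abf1 (1.51 ± 0.26, adjusted p = 0.035). In LS-15 these genes passed neither comparison.

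Of 11 methionine and cysteine genes, which are outside the list, 1 fell without Abf1 (13.7% of all features lower), with a median of -0.07. The gene was CYS4, cystathionine beta-synthase, at 610.1 and 694 CPM with wild-type Abf1 and 349.9, 363 and 396 CPM without (-0.82 ± 0.15, adjusted p = 0.0033). LEU2, the plasmid marker, was at 1174 and 1136 CPM with wild-type Abf1, 796, 756 and 741 CPM without Abf1, 208 and 460.5 CPM in the EM shuffle, 237 and 342 CPM in LS-15 and 547 and 537 CPM in NCS-506.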
